A study of Mus musculus with 2 samples.

Results

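The genes described here encode the proteins of the cytosolic ribosome in cells of mouse gliomas. They are 83 of the 16859 genes listed in both libraries, chosen by symbol as every Rps and Rpl gene together with Rpsa, Rplp0, Rplp1 and Rplp2. The Rps6k kinases (10 genes) and symbols that contain "-ps" (3 genes) were left out. By name, 34 members belong to the small subunit (Rps) and 49 to the large subunit (Rpl). Rps19bp1, a binding partner of Rps19, and Rpl7l1, a nucleolar homologue of Rpl7, satisfied the rule although they are not core ribosomal proteins by name. All 83 have a protein-coding gene in the GENCODE vM21 annotation, spread over 19 chromosomes.

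Each ribosome is built from a small subunit, which reads the mRNA, and a large subunit, which joins the amino acids, and with few exceptions each ribosomal protein is present in 1 copy. Their mRNAs are among the most abundant of a growing cell, and many begin with a C followed by a run of pyrimidines, the terminal oligopyrimidine (TOP) tract through which mTOR signalling controls their translation. The transcripts are cytoplasmic once exported, in contrast to nuclear RNAs such as Malat1.

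The tumours had been induced in C57BL/6 mice by transferring PDGFB into cells at the ventricles of the embryonic telencephalon, and were taken at about 40 days after birth. Tumour cells were enriched by sorting on GFP, and material of 2 tumours was combined in each of 2 pools before droplet capture. Both pools belong to 1 group, PDGFB glioma, so no untreated or normal control was analysed here, and each comparison below is between cells of the same tumours. The titles of both pools share an identifier, and whether they share an animal is not stated in the sources used here. Pool 1 held 33894255 UMIs (unique molecular identifiers, each counting 1 captured mRNA) in 3843 barcodes and pool 2 held 40909383 in 3650. Barcodes with fewer than 500 genes or over 15% mitochondrial UMIs were set aside, leaving 3506 and 3278 cells with medians of 7440 and 11272 UMIs. The libraries shared 4 cell barcodes. Oligodendrocyte precursor markers (8 genes, Pdgfra and Olig2 among them) summed to between 4033 and 14318 CPM (UMIs per 1000000) in every cluster tested. Microglia markers (8 genes) stayed at or under 22.7 CPM there and endothelial markers (4 genes) at or under 8.43 CPM.

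The sequences at the transcription start were examined first, because the TOP tract is the feature by which this family is best known. RefSeq promoters (GRCm38.p6) were found for 63 of the 83 members, 74 promoters in all. A start base C followed by at least 4 pyrimidines was present at the annotated start of 14 promoters (18.9%), against 2.51% of the 32851 promoters of the table. With a shift of up to 5 bases either way the counts were 32 (43.2%) and 18.3%. None of 75 promoters of mitochondrial ribosomal protein genes had the run at the annotated start, while 6 of 19 promoters (31.6%) of a list of translation factors and other known TOP genes had it. With the shift of up to 5 bases, 17 of the 75 (22.7%) and 9 of the 19 (47.4%) had it. The windows below run from 20 bases before the annotated start to 20 bases from it, and capitals mark the C-led pyrimidine run, taken from at most 5 bases before the start onward. They were chosen to show members whose levels are described later, a pair of near-identical copies, and Rpl15 as a further member with a run. The promoter of Rpl13, in which no such run lay within 5 bases of the start, is also shown. The choice does not show how often the run occurs among the members.
Rpl35 (chr2:39005112-39005151, minus strand): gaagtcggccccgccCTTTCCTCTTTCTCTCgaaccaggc
Rps6 (chr4:86857348-86857387, minus strand): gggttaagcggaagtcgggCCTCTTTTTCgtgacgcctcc
Rpl38 (chr11:114668560-114668599, plus strand): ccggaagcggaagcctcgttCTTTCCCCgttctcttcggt
Rpl15 (chr14:18270967-18271006, minus strand): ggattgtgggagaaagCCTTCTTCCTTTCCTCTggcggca
Rps27 (chr3:90213629-90213668, minus strand): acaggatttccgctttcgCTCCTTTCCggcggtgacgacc
Rps27rt (chr9:114982720-114982759, minus strand): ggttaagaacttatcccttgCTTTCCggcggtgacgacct
Rps27l (chr9:66946066-66946105, plus strand): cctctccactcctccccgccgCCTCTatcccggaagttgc
Rpl13 (chr8:123102330-123102369, plus strand): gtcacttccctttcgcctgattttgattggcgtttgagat
In the Rpl35 window the pyrimidines continue upstream of the capitals. Rps27rt lies on another chromosome than Rps27, and the windows of both carry the stretch CTTTCCggcggtgacgacc after the start. The sequence CCGGAAGT, searched on both strands over 250 bases before and 50 after the start, was in 12 member promoters (16.2%), in 3.89% of all promoters and in 16.0% of the promoters of mitochondrial ribosomal protein genes. A match describes letters only.

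Ribosomal protein mRNAs were a large part of everything counted. They gave 11.98% of UMIs in kept cells of pool 1 (exact 95% interval 11.97 to 11.99%) and 13.29% in pool 2 (13.28 to 13.30%), or 12.6% ± 0.925 (SD, n = 2 pools). The median cell gave 8.62% in pool 1 and 11.27% in pool 2, lower than the summed share in both pools. Small-subunit UMIs were 0.72 and 0.74 times the large-subunit UMIs. Among the 100 genes of highest mean level, 61 were members. Intervals cover counting error only.

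Levels were close to each other for most of the family. Since a 3′ library counts each mRNA once, levels are given as CPM without division by length, and the level had no rank relation with coding length (Spearman's rho −0.004 across the 83 genes, which are not independent replicates). Of the 83 members, 68 were at 1000 CPM or more in both pools, and the 10 highest supplied 21.0% of the family's UMIs. Rpl13, a large-subunit protein, was the highest at 4515 CPM in pool 1 and 4691 CPM in pool 2. It was detected in 98.1% and 97.5% of cells. Rps29, a small zinc-binding protein of the head of the small subunit, was at 2378 and 3334 CPM. Rplp1, an acidic protein of the stalk that recruits elongation factors, was at 2531 and 2640 CPM, and Rpl41, the shortest ribosomal protein, at 2247 and 2724 CPM. The other stalk genes were lower than Rplp1, with Rplp0 at 1563 and 1711 CPM and Rplp2 at 1495 and 1772 CPM. Rpsa, the small-subunit protein also known as the laminin receptor, was at 2217 and 2276 CPM.

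The low end of the family was made of paralogs and of genes that are not core components. Rps27rt, a copy of Rps27, was at 28.7 CPM in pool 1 and 38.1 CPM in pool 2, and since it is nearly identical to Rps27 its counts may be shared with it. Rps19bp1 was at 62.6 and 58.5 CPM and Rpl7l1 at 94.2 and 90.6 CPM. Rpl36al was at 428 and 448 CPM, and Rpl22l1 at 529 and 499 CPM. The highest member was 138-fold above the lowest. Ranks of the members agreed between pools (rho 0.941). Many ribosomal protein genes have processed copies elsewhere in the genome, and how reads that match several copies were counted is not given in the sources used here.

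**Figure D1:**
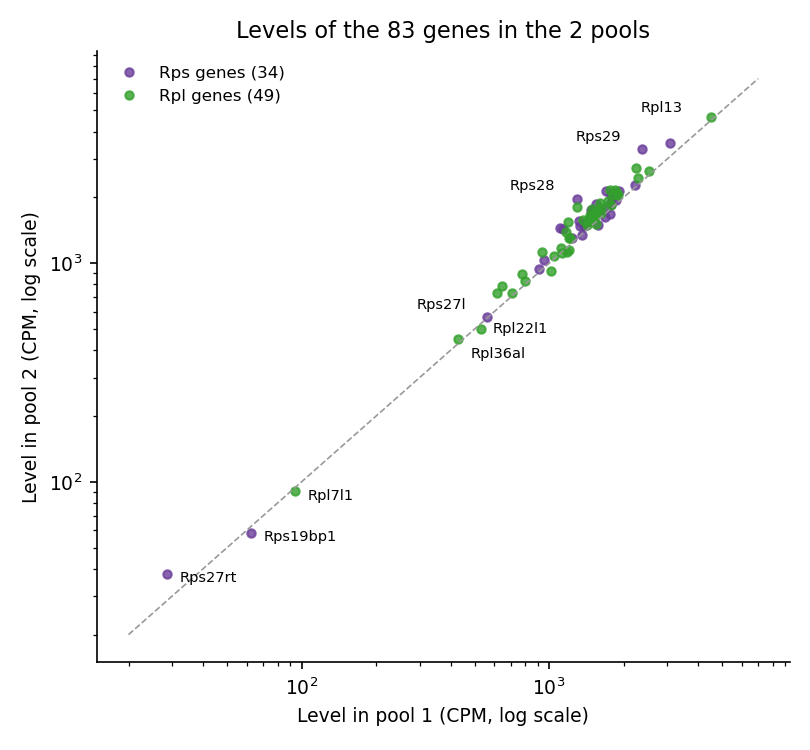
Level of each of the 83 ribosomal protein genes in pool 1 (x axis) and pool 2 (y axis), in CPM on log scales, with small-subunit (Rps) and large-subunit (Rpl) genes in different colours and the line of equal levels dashed. Rpl13 stands highest at 4515 and 4691 CPM, Rps27rt lowest at 28.7 and 38.1 CPM, and Rps28 and Rps29 lie farthest above the line.

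Most members were somewhat higher in pool 2. The median log2 ratio of pool 2 over pool 1 was 0.12 over the members, with 71 higher and 12 lower, and −0.01 over the 7129 genes at 20 CPM or more in both pools. The ratio was largest for Rps28, at 1291 CPM in pool 1 and 1972 CPM in pool 2 (log2 ratio 0.61). Rps29 (0.49) and Rpl38 (0.48) followed, and Rpl10 was lowest (−0.15). With 1 library per pool this difference has no test. Pool 2 was also deeper and its median mitochondrial share lower, 1.44% against 2.97%, and the part of these in the difference was not tested.

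To compare cells within the tumours, cells were grouped into 12 clusters on a random part of the counts, without ribosomal protein, mitochondrial or core cycling genes, and the remaining counts were used for tests. Clusters 0 to 8 had at least 20 cells in each pool. Cluster 8 is committed oligodendrocyte precursor-like, with 8 of 8 markers at 20 CPM or more and Enpp6 and Bmp4 among its 10 leading genes. Its committed precursor markers summed to 13980 and 13173 CPM. Clusters 9, 10 and 11 are microglia-like, astrocyte-like and oligodendrocyte-like and held at most 20 cells per pool, so they were not tested. Cluster 0 had the highest Malat1 and cluster 6 the highest sum of 19 hypoxia genes among those tested. Cycling cells made up 85.4% and 81.0% of cluster 2 and 95.9% and 92.6% of cluster 4 (pools 1 and 2, over cells deep enough to be called). Sums of cells within a pool come from the same tumours, so p-values measure the spread between these sums rather than between animals.

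The ribosomal protein share was lowest in cluster 0 and highest in cluster 6 of the tested clusters, in both pools. In cluster 0 it was 3.15% of UMIs in pool 1 and 4.43% in pool 2. In cluster 6 it was 17.1% and 17.3%, which is 5.42 and 3.91 times the share of cluster 0. The remaining tested clusters lay between, from 9.69% (cluster 7) to 12.8% (cluster 2) in pool 1, and from 10.5% (cluster 8) to 16.0% (cluster 3) in pool 2. The order among them changed between pools, with cluster 3 at 12.3% in pool 1 and 16.0% in pool 2. The small-to-large ratio stayed between 0.68 and 0.75 in every tested cluster and pool. Among the small clusters, the microglia-like cells reached 20.4% (13 cells) and 16.4% (16 cells), with a small-to-large ratio of 0.84 and 0.82. The oligodendrocyte-like cells were at 5.97% (4 cells) and 5.72% (20 cells), and the astrocyte-like cells at 6.41% and 5.11% (7 cells each). A share is relative, so it also falls where other RNAs rise.

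**Figure D2:**
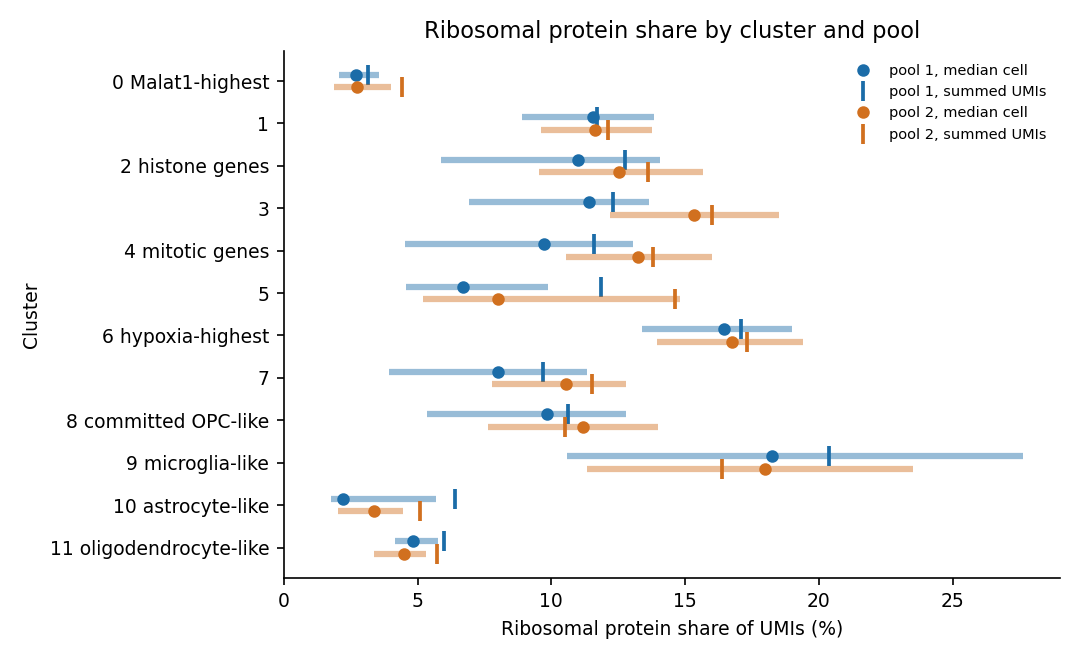
Share of UMIs from the 83 ribosomal protein genes (x axis, percent) in each cluster (y axis) and pool. Points give the median cell, thick lines the 25th to 75th percentile of cells, and vertical ticks the share of summed UMIs; cluster 0 lies at 3.15% and 4.43% of summed UMIs and cluster 6 at 17.1% and 17.3%.

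Depth moved with the share inside most clusters, and the median share was higher in the deeper cells in 14 of 18 clusters and pools. In cluster 2 of pool 1 the 125 shallower cells had a median share of 5.86% and the 125 deeper cells 13.3%. Cluster 7 of pool 1 gave 4.16% and 10.4% in the same split. In pool 2 the gap was smaller, 11.9% against 13.4% in cluster 2 and 8.74% against 11.8% in cluster 7. The shallower cells had the higher median in cluster 0 of both pools (2.79% against 2.50% and 2.84% against 2.68%), in cluster 1 of pool 2 (11.8% against 11.6%) and in cluster 8 of pool 2 (13.1% against 9.59%). In cluster 5, whose median cell held 1835 and 1632 UMIs, the median cell gave 6.69% and 8.02% but the summed UMIs gave 11.9% and 14.6%, since deep cells weigh more in a sum. Across kept cells the share had a Pearson correlation of −0.64 and −0.65 with the Malat1 share, −0.43 and −0.47 with the mitochondrial share and 0.61 and 0.51 with log10 UMIs (3506 and 3278 cells, which share a library and are not replicates). Malat1 is part of the same total, so its correlation with the share is partly fixed.

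In the Malat1-highest cluster every ribosomal protein gene was lower than in the other tested clusters, taken at equal weight. All 83 members passed an adjusted p of 0.05 in edgeR's quasi-likelihood test, against 27.5% of the 11429 genes tested that were lower in this cluster. The median log2 fold of the members was −2.07, a 4.2-fold difference, and that of all genes 0.05. Rpl35, a large-subunit protein near the exit of the nascent chain, was at 132 and 204 CPM here, against 465 to 910 CPM (pool 1) and 522 to 954 CPM (pool 2) in the other tested clusters. Like all 83 members, it had its lowest CPM of the tested clusters in cluster 0 in both pools. The same count was not made over all genes. The log2 fold of Rpl35 was −2.42 ± 0.14 (SE, adjusted p = 9.1e-14). Rpl32, another large-subunit protein, was at 368 and 637 CPM (log2 fold −2.38 ± 0.16). Rps27l, an Rps27 paralog known as a p53 target, was at 120 and 147 CPM (−2.36 ± 0.14). Rpl41 gave −2.33 ± 0.14. The smallest difference was that of Rpl7l1, at 56.2 and 46.4 CPM (−1.09 ± 0.14, adjusted p = 8.7e-08), followed by Rpl8 (−1.62), Rpl13 (−1.63), Rpsa (−1.66) and Rps15 (−1.67).

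Other translation genes were lower in cluster 0 too. Of 24 translation factors and TOP genes, 23 were lower and none higher, with a median of −1.73, and the exception was Eif4a2, a helicase of cap-dependent initiation (−0.04 ± 0.14). Tpt1, a classical TOP mRNA, gave −2.12, and Fau, whose product carries the small-subunit protein eS30, gave −2.05. Of 34 ribosome assembly genes 23 were lower, with a median of −0.75, and of 77 mitochondrial ribosomal protein genes 72 were lower, with a median of −1.49. The median cell of cluster 0 held 3184 UMIs in pool 1 and 2674.5 in pool 2, with 4.84% and 4.54% mitochondrial and 9.53% and 11.4% Malat1 UMIs. The summed neuron markers (7 genes) were highest in this cluster in pool 1, at 188 CPM, with cluster 7 at 157 CPM. In pool 2 clusters 0 and 7 were level at 245 CPM. The summed oligodendrocyte precursor markers were highest in cluster 0 among the clusters tested. The part of these values in the result was not tested. In cells with at least 5000 UMIs (130 and 68 cells of cluster 0) all 83 members were again lower, with a median of −1.62, against 17.1% of all genes.

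Cluster 6, whose leading genes included S100a10, Lgals1 and Vgf, showed the reverse. All 83 members were higher than in the equal-weight mean of the rest, against 19.5% of all genes, with a median log2 fold of 0.82 (1.76-fold; all genes 0.02) and log2 folds from 0.46 to 1.03. In pool 1, 80 members had their highest CPM in this cluster, and in pool 2, 69 did. The same count was not made over all genes, so how common this is in cluster 6 is not known. Rps27l stood at 851 CPM in pool 1 and 856 CPM in pool 2, above each other tested cluster (at most 799 and 753 CPM), with a log2 fold of 1.03 ± 0.10 (adjusted p = 5.4e-09). Rpl32 was at 2788 and 3045 CPM, with a fold between those of Rps27l and Rps6. Rps6, the substrate of the S6 kinases, was at 1395 and 1316 CPM (0.97 ± 0.10). Rpl12, at the base of the stalk, was at 1410 and 1606 CPM and Rpl22l1 at 768 and 700 CPM, and both gave 0.97 ± 0.10. The exceptions to the pattern were again few. Rpl13 (0.49 ± 0.10), Rps19bp1 (0.49 ± 0.12) and Rpl7l1 (0.46 ± 0.09) had the smallest folds, and in both pools Rpl13 was higher in cluster 1 than in cluster 6.

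Translation factors followed in cluster 6, with 23 of 24 higher (median 0.70) and Eif4a2 the exception once more (−0.14 ± 0.13). Tpt1 gave 0.88, Rack1, a scaffold on the small subunit, 0.87, and Eef1a1, the factor that brings aminoacyl-tRNA to the ribosome, 0.73. Of the assembly genes 19 of 34 were higher, and of the mitochondrial ribosomal protein genes 65 of 77. The reference of this comparison includes cluster 0 and the shallow cluster 5. Without these 2 clusters 82 of the 83 members were still higher, against 13.5% of all genes, with a median of 0.59, and these 82 are among the 83 above. In cells with at least 5000 UMIs 81 were higher, with a median of 0.64, against 13.1% of all genes. The median cell held 13600 and 16454 UMIs, the Malat1 share was low at 2.33% and 1.69%, and the part of depth in the result beyond these figures was not tested. Hba-a1, the 1 erythroid marker measured, was at 0 UMIs in cluster 6 of pool 1 and at 97.7 CPM in cluster 6 of pool 2, while the members' median fold was 0.97 in pool 1 and 0.70 in pool 2.

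**Figure D3:**
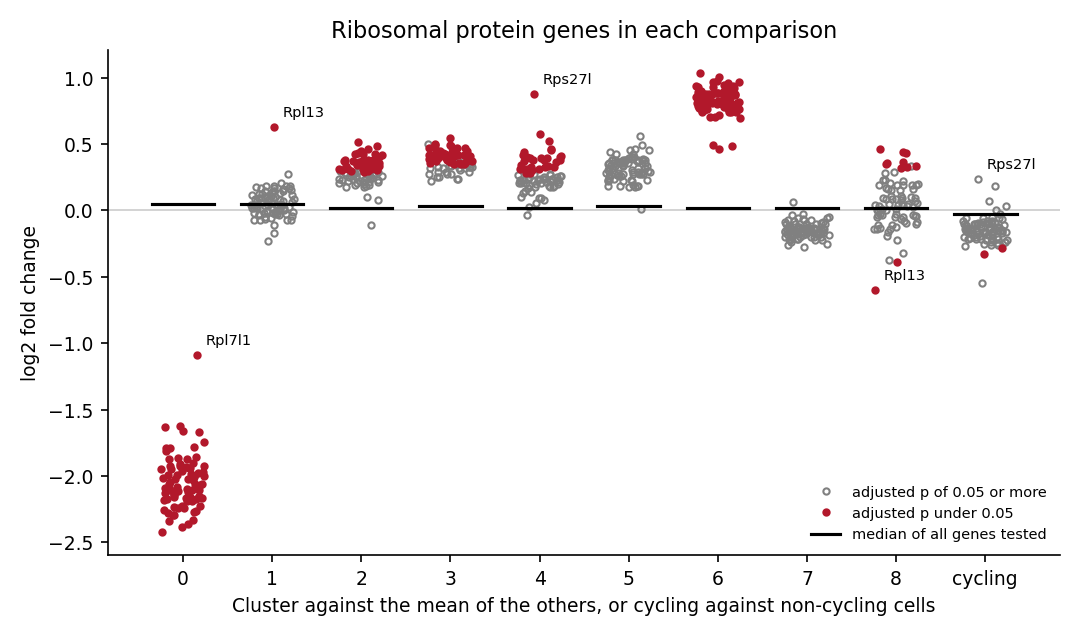
Log2 fold change (y axis) of each of the 83 genes in each cluster against the mean of the other tested clusters, and in cycling against non-cycling cells (x axis). Filled points passed an adjusted p of 0.05, open points did not, and black bars give the median of all genes tested; all 83 points are filled and below 0 in cluster 0 and filled and above 0 in cluster 6.

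In the other clusters the count of members called differed between fits. The leading genes of cluster 3 included Rlbp1, Sox9 and Vim, of which Vim was higher still in cluster 6. In cluster 3, 52 members were higher (3.02% of all genes), with a median of 0.38 and Rpl35 the largest at 0.54 ± 0.10. In cluster 2, led by histone genes such as Hist1h1b, 39 were higher (15.1% of all genes), Rps20 the most at 0.52 ± 0.11. In cluster 4, led by mitotic genes such as Ccnb1 and Cenpf, 29 were higher (15.5% of all genes). Without clusters 0 and 5 in the reference edgeR called 0 members higher in cluster 3 (2.71% of all genes; 19 at an unadjusted p under 0.05), 0 in cluster 2 (12.7%; 4 unadjusted) and 2 in cluster 4 (12.1%). In cells with at least 5000 UMIs, with the full reference, edgeR called 0 in cluster 2 (12.4% of all genes; 7 unadjusted) and 0 in cluster 3 (1.28%; 32 unadjusted). The leading genes of cluster 1 included C1ql1 and Kcnmb4. There Rpl13 was the 1 member called higher (9.64% of all genes), and 15 members were lower once clusters 0 and 5 were left out (6.54% of all genes). Cluster 7 was led by Meox1 and by Ptgfrn, which was higher still in cluster 0. No member was called in cluster 7 (9.82% of all genes in either direction, 5 members at an unadjusted p under 0.05, and 0 called by DESeq2). Without clusters 0 and 5, 79 members were lower there, with a median of −0.41, against 9.45% of all genes. The leading genes of cluster 5 included 9130230L23Rik, Gm42418 (30456 CPM, against a mean of 13849 over the other clusters), AY036118, Hes1 and Dll3. In this cluster no member was called in the edgeR test (0.297% of all genes in either direction, with 70 members at an unadjusted p under 0.05). DESeq2 called 31 higher there (1.13% of all genes), and in cells with at least 5000 UMIs (50 and 55 cells) edgeR called 80 members higher, with a median of 0.89, against 4.30% of all genes.

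In the committed oligodendrocyte precursor-like cluster the family did not move together. Of the 83 members 9 were higher, against 12.5% of all genes, and 2 lower, against 9.80%, and the median of the members was 0.05. Fitted by pool, the median was 0.15 for pool 1 and −0.13 for pool 2, and so the direction of the family as a whole differed between the pools (67 and 39 cells). Oligodendrocyte markers (9 genes) summed to 15068 and 16330 CPM in this cluster and to at most 332 CPM in clusters 0 to 7, and their part in the values below was not tested. Rpl38, a small large-subunit protein known for its part in translating Hox mRNAs, was at 1558 and 1753 CPM, with a log2 fold of 0.46 ± 0.12 (adjusted p = 0.0039). Rplp1 was at 2816 and 2702 CPM (0.44 ± 0.11, adjusted p = 0.0020). Rps26, which contacts mRNA upstream of the start codon, gave 0.43 ± 0.12, and Rps2, at the mRNA entry, 0.36 ± 0.11. These genes were called higher with the full reference, and without clusters 0 and 5 no member was called higher.

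Rpl13 and Rpl21 went the other way. Rpl13 was at 2559 and 2578 CPM in the pools, while clusters 1 to 7 held 3932 to 5795 and 3741 to 6337 CPM. The cluster 8 values lay below those of each other tested cluster except cluster 0, and the log2 fold was −0.60 ± 0.11 (adjusted p = 0.00012). Rpl21, a large-subunit protein, was at 1251 and 1126 CPM, against 1452 to 2418 and 1609 to 2286 CPM in clusters 1 to 7 (log2 fold −0.39 ± 0.12, adjusted p = 0.018). Without clusters 0 and 5, 24 members were lower in cluster 8 (10.1% of all genes), Rpl13 at −0.81 and Rpl21 at −0.64 the most. Of the members called, these 2 were called with the same sign in both fits. With the full reference 1 of 24 translation factors was higher (Eef1g, 0.35 ± 0.13), and of the assembly genes 5 of 34 were higher, Ncl (nucleolin) among them at 0.40 ± 0.12. Wdr12, a subunit of the complex that processes large-subunit rRNA, was the 1 assembly gene lower (−1.11 ± 0.30, adjusted p = 0.0061). Of 77 mitochondrial ribosomal protein genes 13 were higher. These counts stand beside the 12.5% of all genes that were higher in this cluster.

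Cycling cells were compared with non-cycling cells inside clusters 1, 2, 3, 6 and 7 (284 and 199 cycling, 1249 and 1606 non-cycling cells). The median log2 fold of the members was −0.16 (all genes −0.03), with negative values in both pools for 75 of 83. The share of all genes with negative values in both pools was not computed. The ribosomal protein share was below that of non-cycling cells in each of the 5 clusters of pool 1 and in clusters 2 and 6 of pool 2. In pool 2 it was above in cluster 1 (12.5% against 12.1%, 10 cycling cells), cluster 3 (17.1% against 16.0%, 9 cells) and cluster 7 (12.6% against 11.5%, 5 cells). Of the 83, 2 passed the test, against 0.833% of all genes that were lower. They were Rpl10, which joins the large subunit late in its maturation (−0.33 ± 0.09, adjusted p = 0.018), and Rpl3, which lies at the peptidyl transferase centre (−0.28 ± 0.08, adjusted p = 0.044). Neither was called with only 1 pool, with all counts or in cells with at least 5000 UMIs. Rps27l was the highest member at 0.23 ± 0.09 (adjusted p = 0.20). Among translation factors Eef1a1 was lower (−0.30 ± 0.08, adjusted p = 0.015) and Nap1l1, a histone chaperone with a TOP mRNA, higher (0.31 ± 0.09, adjusted p = 0.043). Of 32 assembly genes 1 was higher, Nop58, a core protein of box C/D snoRNPs (0.54 ± 0.15, adjusted p = 0.020), and the list's median was 0.20. Of all genes 1.81% were higher in cycling cells.

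Relative to the family's own total the composition was narrow, with a few members apart. The log2 of each gene over the summed members ranged by a median of 0.31 over the 9 tested clusters, and 74 of 83 members ranged by less than 0.5. The members with the widest ranges were Rpl7l1 (1.14), Rpl13 (1.06), Rps27l (0.78), Rps27rt (0.61) and Rps19bp1 (0.58). Rpl13 was relatively highest in cluster 1 and lowest in cluster 8, Rps27l highest in cluster 4 and lowest in cluster 0, and Rpl7l1 highest in cluster 0 and lowest in cluster 2.

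**Figure D4:**
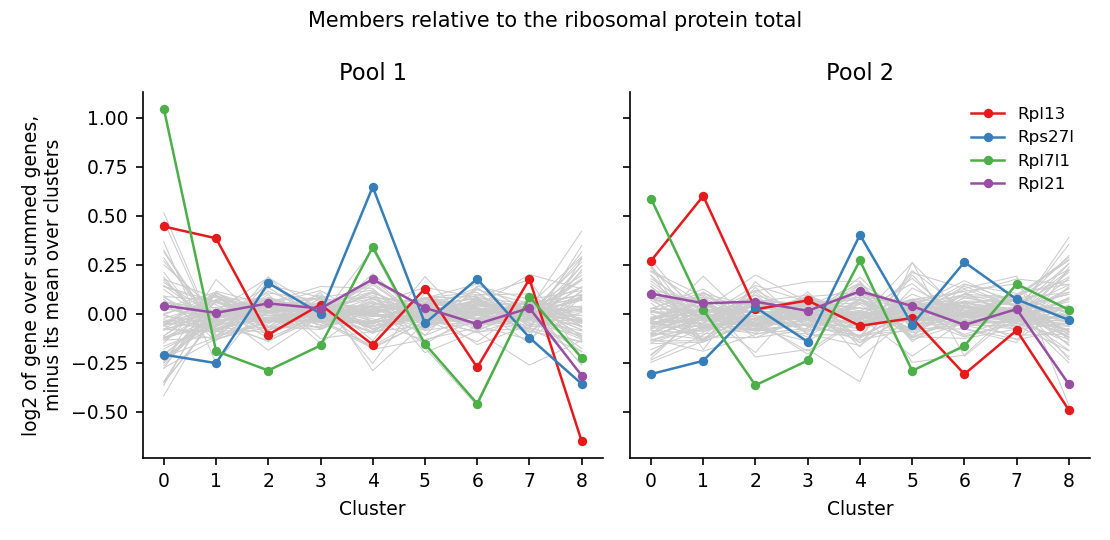
Log2 of each gene's UMIs over the summed ribosomal protein UMIs, minus the gene's mean over clusters (y axis), in clusters 0 to 8 (x axis) of pool 1 (left) and pool 2 (right). Grey lines are the other members, of which most range by less than 0.5, while Rpl13 peaks in cluster 1 or 0 and is lowest in cluster 8, and Rps27l peaks in cluster 4 in both pools.

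When library sizes were set to the summed members, 12 members were higher and 16 lower in cluster 0, with Rpl7l1 (0.98), Rpl8 (0.42) and Rpl13 (0.41) the highest and Rpl35 (−0.37) and Rpl32 (−0.35) the lowest. On this scale 90.6% of all genes were called in cluster 0, so a call is common there. In cluster 6 (76.0% of all genes called), Rpl32 was higher (0.19) and Rpl13 (−0.33) and Rpl7l1 (−0.35) lower. In cluster 8 (19.6% of all genes called), 11 members were higher and 6 lower. Rpl13 (−0.65), Rpl21 (−0.45), Rpl22l1 (−0.43) and Rps4x, the X-linked small-subunit gene (−0.38), were lowest there, and Rpl38 (0.41) and Rplp1 (0.39) highest. In cycling cells (3.18% of all genes called), Rps27l was the 1 member called, at 0.38 (edgeR adjusted p = 0.0077).

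The paralog Rps27l moved apart from its partner Rps27. In cluster 4 it was at 799 and 753 CPM. Over the tested clusters it ranged from 120 to 851 CPM (pool 1) and from 147 to 856 CPM (pool 2), and cluster 6 was the 1 cluster above cluster 4 in both pools. In cluster 4 its log2 fold was 0.88 ± 0.10 (edgeR adjusted p = 5.5e-08), the largest of the 83 members there. Rps27 itself was at 1103 and 1432 CPM in cluster 4 and so within the range of the other clusters. Over all kept cells Rps27l had 0.49 (pool 1) and 0.39 (pool 2) times the UMIs of Rps27, and the ratio was 0.72 and 0.53 in cluster 4. In the microglia-like cells it was 0.093 and 0.090, from 12 Rps27l UMIs against 129 of Rps27 in pool 1 and 28 against 312 in pool 2.

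The ratios of other pairs peaked in other clusters. Rpl22l1, the paralog that the Rpl22 protein is known to repress, had 0.66 and 0.60 times the UMIs of Rpl22, and among the tested clusters its ratio was highest in cluster 4 in pool 1 (0.80) and in cluster 7 in pool 2 (0.70). Rpl36al had 0.55 and 0.50 times those of Rpl36a, and its ratio was highest among the tested clusters in cluster 8, at 0.72 and 0.71. Rpl7l1 had 0.080 times those of Rpl7 in each pool, and 0.23 and 0.12 in cluster 0, the highest of the tested clusters. Rpl3l, Rpl39l, Rpl10l and Rps4l were not among the genes listed in both pools.

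**Figure D5:**
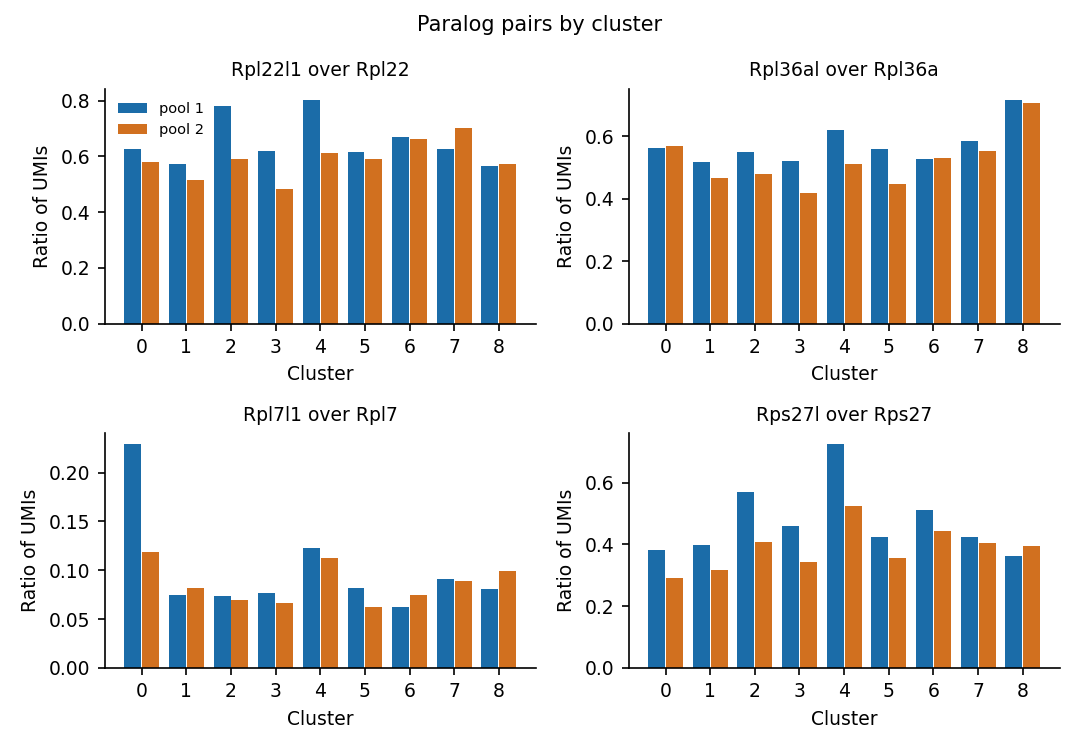
Ratio of the UMIs of a paralog to those of its partner (y axis) in clusters 0 to 8 (x axis) of pool 1 and pool 2, for 4 pairs. Rps27l over Rps27 is highest in cluster 4 (0.72 and 0.53), and Rpl36al over Rpl36a in cluster 8 (0.72 and 0.71).

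Across cells the members varied together. After thinning to 2000 UMIs (3115 and 2874 cells), the median correlation of a member with the sum of the others was 0.68 in pool 1 and 0.64 in pool 2. Over 7046 other genes the median correlation with the members' sum was −0.02 and −0.01. These are descriptions across cells that share a library, and highly counted genes give higher correlations. The members that followed least were those of low count, Rpl7l1 (0.10 and 0.10), Rps27rt (0.10 and 0.11), Rps19bp1 (0.16 and 0.10), Rpl36al (0.41 and 0.31), Rpl22l1 (0.46 and 0.36) and Rps27l (0.48 and 0.41). Outside the members, Tpt1 (0.81 and 0.79) and Eef1a1 (0.78 and 0.77) were most alike, followed by Ppia, Fau, Ubb, Actb, Rack1, Tmsb4x, Ybx1 and Dbi. Of these 10 genes, 4 were in the translation list. Outside cluster 0 Tpt1 kept 0.79 and 0.71, and Eef1a1 0.75 and 0.70. The genes most opposed were Gm42418 (−0.67 and −0.58) and Malat1 (−0.65 and −0.56).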

How the data were processed

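Single-cell libraries of 2 pools of sorted glioma cells were made with the 10x Genomics 3′ kit, version 3.1, per the labels. The authors deposited raw UMI counts per gene and barcode without normalization, and the submitters' processing notes name Cell Ranger 6.0.2, GRCm38 and mm10. No source used here gives the cell and gene filters before deposit. A barcode was kept from 500 genes upward and up to 15% mitochondrial UMIs. Scrublet called 0 and 2 doublets against 98 and 86 expected, and no cell was removed as a doublet in the main fits. Each count was split at random with probability 0.5 into a part for clustering (1000 variable genes, 30 principal components, 15 neighbours, Leiden resolution 0.8; scanpy 1.11.5) and a part for tests.

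Test counts were summed per pool and cluster (18 libraries, 8 residual degrees of freedom, 11429 genes tested) and 1 cluster at a time was set against the others at equal weight in 1 edgeR 4.0.16 quasi-likelihood fit with TMM, filterByExpr and the pool as a block. Genes used for clustering were not tested. Cells with UMIs of at least 2 of 10 core cycling genes after thinning to 2000 UMIs were called cycling, those with 0 non-cycling, and the states were compared with each combination of pool and cluster as a block, in a fit of 20 libraries with 9 residual degrees of freedom and 8280 genes. Pool numbers are names of libraries, and each pool's own cells are compared with each other, which is why the block is in the design. Values by cluster and in CPM (UMIs per 1000000) are from all counts of kept cells. P-values were adjusted over all genes tested by Benjamini and Hochberg, with calls under 0.05. The SE of an edgeR log2 fold was taken as its absolute value over the square root of the F statistic. DESeq2 1.42.0 was an alternative. The test script was tested on simulated data.

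Genes named are the 5 highest and 5 lowest members, the 5 largest folds each way among called members with 1 sign in both pools and at least 20 CPM in the clusters with most committed precursor markers, hypoxia genes and Malat1 and in cycling cells, the 5 widest relative ranges, paralog pairs, stalk genes and Rpsa, and the 10 other genes most correlated with the members. Some genes that the rule names are not reported here. Further members and genes of lists are named from their values. The members, lists and clusters to describe were chosen with earlier results of these data known, and the 5000 UMI minimum after seeing the data.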

Additional observations from a re-analysis of the deposited data

Results flagged for a closer look

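Some signal lay outside the members and cells compared. The rows left out for "-ps" in their symbol carried UMIs in kept cells: Rpl10-ps3 had 529 in pool 1 and 668 in pool 2, Rpl36a-ps1 had 353 and 443, and Rpl9-ps6 had 819 and 1319. At 32.6 CPM in pool 2, Rpl9-ps6 was about as high as the lowest member, Rps27rt, at 38.1 CPM. Whether these reads come from the copies or from their parent genes was not tested. Barcodes removed by the cell filter also held members' UMIs, at a share of 4.49% in pool 1 (337 barcodes) and 5.35% in pool 2 (372 barcodes). Both shares were below those of the kept cells, and the median removed barcode held 679 and 667.5 UMIs.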

How the results depend on the processing

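The members' share of UMIs (12.6%) stayed within its SD over pools under every alternative, from 11.98 to 13.5%. The low end is pool 1 alone. With 2 pools, leaving 1 out cannot move the share by more than this SD, so the outcome of those 2 alternatives was fixed in advance. In each tested fit but that with library sizes set to the summed members, at least 81 members were called higher in cluster 6. All 83 were called lower in cluster 0 in the same fits, apart from the fit without clusters 0 and 5, which holds no cluster 0. Beside each count stands the share of all genes called in that fit. On the summed-member scale 28 members were called in cluster 0 (90.6%, median −0.036), 2 in cluster 1 (5.84%), 3 in cluster 2 (26.7%), 0 in cluster 3 (17.4%), 2 in cluster 4 (21.7%), 3 in cluster 6 (76.0%, median 0.0041), 17 in cluster 8 (19.6%) and 1 in cycling cells (3.18%, median −0.0047). It reversed Rpl13 (0.41), Rpl7l1 (0.98), Rps19bp1 (0.029), Rps27rt (0.31), Rpl22 (0.17) and Rpl22l1 (0.15) in cluster 0, and Rpl13 (−0.33), Rpl7l1 (−0.35), Rps19bp1 (−0.32), Rps27rt (−0.067) and Rpl22 (−0.011) in cluster 6. Without clusters 0 and 5, cluster 1 had 16 calls (16.1%), cluster 2 had 0 (18.8%), cluster 3 had 0 (4.75%), cluster 4 had 3 (19.7%), cluster 7 had 79 (18.4%) and cluster 8 had 24 (21.3%), and the cluster 6 median was 0.59. With at least 5000 UMIs per cell cluster 2 had 0 (16.6%), cluster 3 had 0 (1.77%), cluster 4 had 3 (17.4%), cluster 5 had 80 (6.44%), cluster 8 had 4 (19.8%) and cycling cells had 0 (2.51%, median −0.10), and the cluster 0 median was −1.62. With at least 1000 genes per cell they were 25 in cluster 2 (19.9%), 33 in cluster 3 (3.54%) and 61 in cluster 5 (1.97%). Without the low-count filter they were 2 in cluster 1 (11.2%), 59 in cluster 2 (16.1%) and 7 in cluster 5 (0.651%), and the cycling median was −0.23. Without the replicate block 6 were called in cluster 2 (13.5%), 0 in cluster 3 (0.525%), 6 in cluster 4 (16.0%), 2 in cluster 8 (19.8%) and 0 in cycling cells (1.88%). The median of cluster 8 turned negative with library sizes without the members (−0.0045, 7 called, 21.7%), with the summed members (−0.0056), at 5000 UMIs (−0.12) and without clusters 0 and 5 (−0.22), and leaving out a pool gave −0.13 to 0.15. DESeq2 called 31 in cluster 5 (1.58%), and all counts called 1 there (0.737%). The cycling count was 1 with RLE (2.66%, median −0.12), without the members in library sizes (2.56%) and with high doublet scores removed (2.31%), 0 with all counts (4.14%, median −0.13) and 0 to 0 with a pool left out. DESeq2 gave a cycling median of −0.13. On the summed-member scale the members are set against their own total, so by construction that fit removes any shift shared by the family. Causes of the other changes were not tested. The cycling fit holds neither cluster 0 nor cluster 5, so leaving them out was not run there. With 1 pool left out the cluster comparisons have no residual degrees of freedom and are values only. Pools of 2 tumours and 1 group limit every comparison to these tumours.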
